A study of Homo sapiens with 2 samples.

Results

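The human metallothioneins and MTF1 were read in a human corneal epithelial cell line grown in a serum-containing medium or in a serum-free one. The group holds 9 of the 26506 genes in the deposited tables, taken by gene symbol: MT1A, MT1E, MT1F, MT1G, MT1H, MT1M, MT1X, MT2A and MTF1. The line is ATCC CRL-11515, described in the labels as a human corneal epithelial cell from cornea. The first group was grown for 72 hours in a defined special medium, which was DMEM/F12 with calcium chloride added at 1 mM, serum from fetal cattle at 10%, EGF at 10 ng/mL and an antibiotic and antimycotic mixture. The second group was grown for 72 hours in keratinocyte serum-free medium (KSFM), for which the labels list no additions. Poly(A) RNA of 3 independent cultures was pooled per medium, so there is 1 library per medium, no spread between cultures and no test between media. Every interval below is an exact 95% interval that covers counting error only, and since no molecular identifiers are described, reads may include copies of 1 molecule.

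Metallothioneins are small proteins that are unusually rich in cysteine and bind zinc and copper, and also cadmium when it is present. They buffer free zinc, limit metal toxicity and react with oxidants. MTF1 is the zinc-sensing transcription factor of the system. When cytosolic zinc rises it enters the nucleus and binds short DNA elements, called metal response elements, upstream of metallothionein genes and of the zinc exporter gene SLC30A1. Glucocorticoids also induce human MT2A.

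The 8 metallothionein genes lie in a cluster on chromosome 16 (GRCh38, GENCODE release 29 gene bounds). MT2A (ENSG00000125148) is at chr16:56608199-56609497, MT1E (ENSG00000169715) at chr16:56625475-56627112, MT1F (ENSG00000198417) at chr16:56657694-56660698 and MT1X (ENSG00000187193) at chr16:56682424-56684196, all on the plus strand. MT1M, MT1A, MT1G and MT1H lie between MT1E and MT1X, with MT1G on the minus strand. MTF1 (ENSG00000188786) is on the minus strand at chr1:37809567-37859620. Each metallothionein has a coding transcript of 3 exons with a coding length, stop included, of 186 bases (189 in MT1G). In each of the 8 genes 20 codons were TGC or TGT, the cysteine codons, out of 61 (62 in MT1G).

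The coding sequences of the 4 metallothioneins found at 1 CPM or more (CPM is the count scaled by library size) are printed from GENCODE release 29 transcripts because these genes are paralogs whose reads have to be told apart. MT2A is given in lower case, and capitals in the others mark bases that differ from MT2A at the same position.
MT2A: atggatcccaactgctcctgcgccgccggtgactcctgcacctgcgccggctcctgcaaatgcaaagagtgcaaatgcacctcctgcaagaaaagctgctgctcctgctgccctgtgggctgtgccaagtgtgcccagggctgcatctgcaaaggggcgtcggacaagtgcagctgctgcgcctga
MT1X: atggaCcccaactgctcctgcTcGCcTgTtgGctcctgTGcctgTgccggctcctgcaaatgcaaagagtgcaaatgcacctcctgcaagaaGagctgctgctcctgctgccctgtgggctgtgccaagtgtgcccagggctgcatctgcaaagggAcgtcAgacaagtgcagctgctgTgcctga
MT1E: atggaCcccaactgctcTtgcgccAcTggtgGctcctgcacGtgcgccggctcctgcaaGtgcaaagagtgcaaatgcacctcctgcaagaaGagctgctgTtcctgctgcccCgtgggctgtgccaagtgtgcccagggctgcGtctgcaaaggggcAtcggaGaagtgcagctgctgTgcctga
MT1F: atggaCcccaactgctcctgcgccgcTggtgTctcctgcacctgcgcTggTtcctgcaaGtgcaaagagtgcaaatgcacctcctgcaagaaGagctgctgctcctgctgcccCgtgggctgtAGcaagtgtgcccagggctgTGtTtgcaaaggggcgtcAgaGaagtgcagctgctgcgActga
MT1X and MT1E each differed from MT2A at 14 of 186 positions (92.5% identity) and MT1F at 16 (91.4%). Whole transcripts were compared by exact shared windows of 100 bases. That is a different measure from percent identity, so the 2 do not show which part is easier to tell apart. None of the 687 windows of 100 bases in the MT2A transcript occurred in a transcript of another GENCODE gene, nor did any of the 605 in MT1E or the 591 in MT1F. In MT1X 67 of 351 windows (19.1%) also occurred in AC026461.1, a noncoding transcript that overlaps MT1X on the same strand. The deposited counts of all 8 metallothioneins were whole numbers in both libraries. Read length is not given in the sources used here, so shorter shared stretches were not assessed.

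Promoters of MT2A, MT1X, MT1H and MTF1 had an entry in RefSeq (GRCh38.p14), 4 of the 9 genes. MT1A, MT1E, MT1F, MT1G and MT1M are not shown. The 250 bases before the start are printed for MT2A and MT1X, which carry most of the metallothionein RNA, and for MT1H, which had none. Capitals mark the core of the metal response element, searched on both strands as TGCACNC and TGCGCNC, and no matches overlapped in these promoters.
MT2A (chr16:56608334-56608583, plus strand): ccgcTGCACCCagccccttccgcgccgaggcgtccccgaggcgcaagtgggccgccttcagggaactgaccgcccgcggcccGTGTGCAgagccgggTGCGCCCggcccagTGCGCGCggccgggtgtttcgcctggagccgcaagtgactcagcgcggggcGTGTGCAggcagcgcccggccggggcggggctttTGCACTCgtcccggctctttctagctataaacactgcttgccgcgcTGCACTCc
MT1X (chr16:56682220-56682469, plus strand): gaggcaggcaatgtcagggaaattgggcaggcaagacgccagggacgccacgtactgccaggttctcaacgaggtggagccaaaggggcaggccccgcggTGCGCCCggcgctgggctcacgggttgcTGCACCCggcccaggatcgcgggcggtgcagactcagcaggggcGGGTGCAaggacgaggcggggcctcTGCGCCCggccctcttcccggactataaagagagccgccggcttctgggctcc
MT1H (chr16:56669564-56669813, plus strand): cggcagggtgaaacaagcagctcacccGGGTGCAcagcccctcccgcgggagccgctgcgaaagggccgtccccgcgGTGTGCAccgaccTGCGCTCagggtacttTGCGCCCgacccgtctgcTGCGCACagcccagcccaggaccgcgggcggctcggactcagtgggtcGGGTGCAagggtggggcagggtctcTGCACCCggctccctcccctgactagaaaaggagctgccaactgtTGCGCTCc
MT2A held 7 matches, MT1X 4 and MT1H 8, and MTF1 (chr1:37859593-37859842, minus strand) held 0. Of 27305 promoter windows of the same length, 24.7% held at least 1 match, 0.366% held at least 4, 0.033% at least 7 and 0.0183% at least 8. A match describes letters in the window and is not a measured binding site. The RefSeq start of MT2A lies downstream of the GENCODE gene bound given above, and so does that of MT1X. The gene with most matches among the 3 shown was the one with no counts in either medium.

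**Figure D1:**
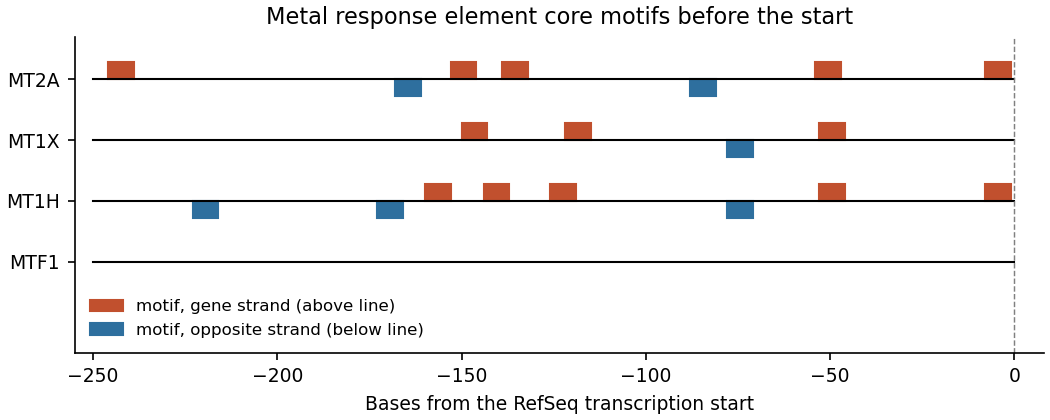
Positions of the metal response element core motifs in the 250 bases before the RefSeq start of MT2A, MT1X, MT1H and MTF1, with distance from the start in bases on the x axis. Boxes above a line are matches on the gene strand and boxes below it on the opposite strand: 7 in MT2A, 4 in MT1X, 8 in MT1H and 0 in MTF1.

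All 4 metallothioneins with measurable RNA were lower in the special medium than in KSFM, while MTF1 differed by less than its counting interval. MT2A, the main metallothionein of most human cells, was 3.58-fold lower and MT1X 5.73-fold lower. MT1E was 3.20-fold lower and MT1F 2.49-fold lower. A gene reaching 1 CPM in the special medium or in KSFM was tested, and it was called where the ratio was 2-fold or more and its interval left out equality. By this rule 4 of the 9 genes were lower and 0 higher, 1 was neither and 4 were below 1 CPM in both libraries. Over all 13632 genes tested, 6.77% were called lower and 9.86% higher. The 5 genes that passed the filter did so in both libraries. The 4 metallothioneins are also very short, and after removal of the trend of the ratios on transcript length only MT1X was still called, as given below.

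MT2A had 1763 counts in the special medium, against 8056 in KSFM. That is 104 CPM (interval 99.4 to 109) in the special medium, against 373 CPM (365 to 382) in KSFM, and the ratio was 3.58-fold lower (3.40 to 3.77). MT2A was the dominant metallothionein in both media. On the deposited TPM values, which divide by transcript length, it stood at 741 TPM in the special medium and 2100 TPM in KSFM, 2.83-fold lower. It ranked 170th of the 17139 genes above 0 TPM in the special medium and 69th of 17226 in KSFM, so it stayed among the more abundant messages of the cells in both.

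MT1X, the second most abundant metallothionein, had 81 counts in the special medium, against 592 in KSFM. Its level was 4.79 CPM (3.80 to 5.95) in the special medium and 27.4 CPM (25.3 to 29.7) in KSFM, 5.73-fold lower (4.54 to 7.32). Of all tested genes 0.58% had a log2 ratio as low or lower. It was the 1 member past a 4-fold rule, which 1.19% of all tested genes passed in that direction. Its level in TPM was 35.9 in the special medium and 162 in KSFM, 4.50-fold lower. Part of its sequence is shared with AC026461.1, as given above.

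MT1E, another inducible isoform, had 35 counts in the special medium, against 143 in KSFM, or 2.07 CPM in the special medium and 6.63 CPM in KSFM, 3.20-fold lower (2.20 to 4.78). MT1F had 41 counts in the special medium, against 130 in KSFM, or 2.42 CPM in the special medium and 6.02 CPM in KSFM, 2.49-fold lower (1.74 to 3.62). In TPM MT1E stood at 11.3 in the special medium and 29.5 in KSFM, and MT1F at 15.95 in the special medium and 31.7 in KSFM. On that scale MT1F was 1.99-fold lower, just short of 2-fold. On log2(TPM + 1) 3 of the 4 were still past 2-fold, as were 2.56% of all tested genes in that direction. Whether the counting intervals of a gene overlapped between the media is not used as a result. The share of all tested genes whose intervals separate was not computed. Intervals of counting error alone separated for genes short of 2-fold. SLC30A1, for example, was at 21.2 to 25.8 CPM in the special medium and 31.5 to 36.5 CPM in KSFM.

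Summed over the 8 metallothioneins, a figure that does not depend on how reads were split among them, there were 1925 counts in the special medium and 8921 in KSFM. The sum was 3.63-fold lower (3.46 to 3.82). Without MT2A the sum was 162 counts in the special medium and 865 in KSFM, 4.19-fold lower (3.54 to 4.98). In TPM the 8 genes made up 0.0806% of all transcripts in the special medium and 0.232% in KSFM, 2.88-fold lower.

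MT1X formed a smaller part of the metallothionein counts in the special medium library than in the KSFM library. MT1X made up 4.21% (3.36 to 5.20) of the summed metallothionein count in the special medium and 6.64% (6.13 to 7.17) in KSFM, and these exact binomial intervals do not overlap. MT2A made up 91.6% (90.3 to 92.8) in the special medium and 90.3% (89.7 to 90.9) in KSFM, with overlapping intervals. The share of MT1E was 1.82% (1.27 to 2.52) in the special medium and 1.603% (1.35 to 1.89) in KSFM, and that of MT1F 2.13% (1.53 to 2.88) in the special medium and 1.46% (1.22 to 1.73) in KSFM. Both pairs of intervals overlap. By TPM the share of MT1X was 4.45% in the special medium and 6.96% in KSFM. The intervals cover counting error in 1 pooled library per medium, so the spread of these shares between cultures is not known. Part of the MT1X sequence is shared with AC026461.1, which is outside the sum.

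**Figure D2:**
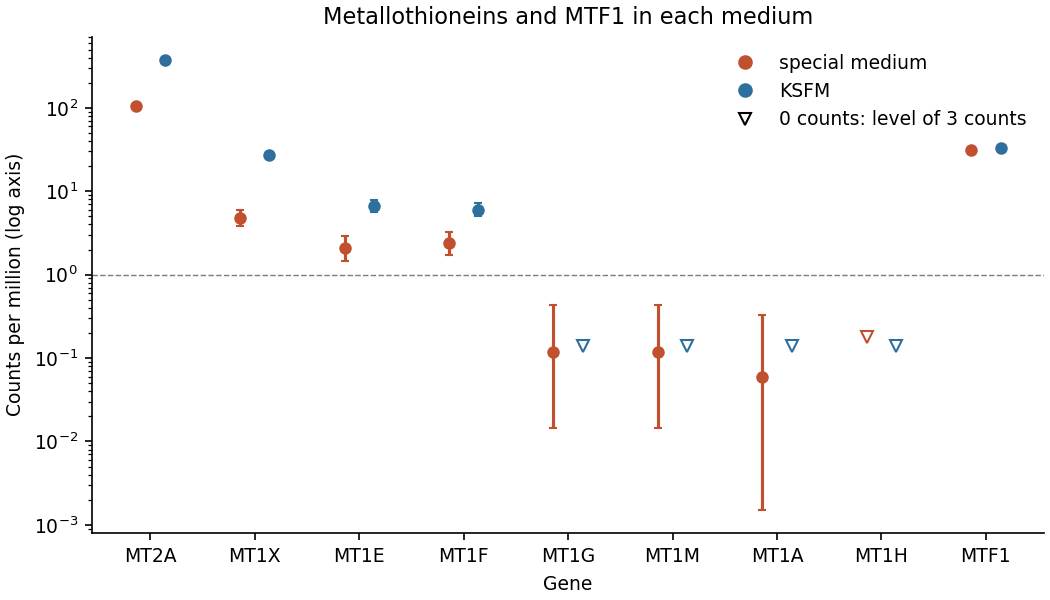
Level in CPM (log axis) of each metallothionein and MTF1, with the special medium to the left of KSFM. Points are 1 pooled library each, bars are exact 95% Poisson intervals, triangles mark a count of 0 at the level of 3 counts, and the dashed line is 1 CPM. MT2A, MT1X, MT1E and MT1F are lower in the special medium, MTF1 is at 31.2 and 33.4 CPM, and the other 4 genes lie below 1 CPM.

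MT1G and MT1M, which are metal-inducible in other cells, had 2 counts each in the special medium and 0 in KSFM. MT1A had 1 count in the special medium and 0 in KSFM, and MT1H had 0 in both. Together these 4 genes had 5 counts in the special medium and 0 in KSFM. A count of 0 allows a level of up to 0.178 CPM in the special medium and 0.139 CPM in KSFM (3 counts of the library). The interval of each gene alone held equality. That of their sum did not, with a lower limit of 1.17-fold higher in the special medium. The 4 were grouped because they lay below 1 CPM in these same data, so that limit is no test of a change. No fold is given at so few counts. Of the further metallothionein genes and pseudogenes in the tables, MT1B, MT1L, MT1JP, MT1DP, MT1IP, MT1HL1, MT3 and MT4, all 8 had 0 counts in both libraries.

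MTF1, the transcription factor, had 528 counts in the special medium and 720 in KSFM. Its level was 31.2 CPM (28.6 to 33.98) in the special medium and 33.4 CPM (31.0 to 35.9) in KSFM, a log2 ratio of −0.10 (−0.26 to 0.07). The interval holds equality and reaches no further than 1.20-fold lower. In TPM it was at 8.11 in the special medium and 7.79 in KSFM. Per transcript length MT2A was far above MTF1 in both media, and MTF1 ranked 9658th in the special medium and 9356th in KSFM.

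Transcript length bears on every metallothionein value here. Effective length, taken as the count per TPM of each gene, was 0.109 to 0.147 of that of the median gene in MT1X, MT2A, MT1F and MT1E, and 2.93 times it in MTF1. Short genes as a whole were lower in the special medium. In the shortest 10% of tested genes, 19.0% of 1353 were called lower and 7.02% higher, with a median log2 ratio of −0.43. In the longest 10%, 3.91% were lower, with a median of 0.02. Among the 59 other genes no longer than MT1E, a set chosen after the data were seen, 40.7% were called lower and 0 were higher, with a median log2 ratio of −0.87.

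Against those 59 genes of like length, MT1X had a log2 ratio of −2.52 and 1 gene was as low or lower. MT2A stood at −1.84 with 2 genes as low or lower, MT1E at −1.68 with 5 and MT1F at −1.31 with 11. After a cubic trend on log effective length was removed, the log2 ratio was −1.53 for MT1X, −0.89 for MT2A, −0.93 for MT1E and −0.42 for MT1F, so MT1X alone stayed past 2-fold. By the same rule 6.61% of 13533 genes were called lower after the length trend was removed, and 6.16% of 11797 after length and GC content were. All 4 kept their direction. The effective lengths behind the deposited TPM were themselves 0.88 to 0.91 times as long in the special medium as in KSFM for these 4 genes, relative to the median gene. That ratio was 0.90 at the median of the 59 genes.

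**Figure D3:**
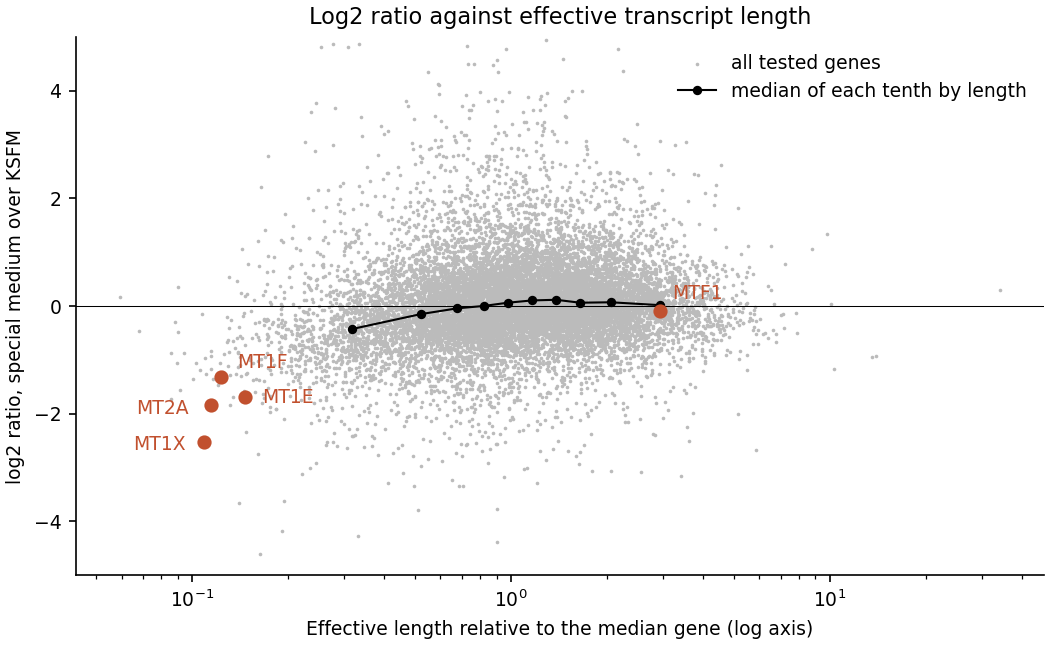
Log2 ratio of special medium over KSFM against effective transcript length relative to the median gene (log axis) for the tested genes with a length, 10 of which lie beyond the plotted range of −5 to 5. Grey points are genes, the black line joins the medians of 10 equal bins by length, and orange points are members: MT1X, MT2A, MT1E and MT1F lie at the short end, where the median of the shortest bin is −0.43, and below most genes of like length.

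Among the other genes of zinc handling, the shares called were near those over all tested genes, 6.77% lower and 9.86% higher, and so say nothing about zinc handling as a group. Zinc exporters, which lower cytosolic zinc, had 0 of 7 tested genes called in either direction and 5 of 7 below a log2 ratio of 0, with a median of −0.17, against −0.00 over all tested genes. The most abundant ones were SLC30A5 at a log2 ratio of −0.86 (−0.95 to −0.76), which was called lower at −1.02 after removal of length and GC content, and SLC30A9 at −0.06 (−0.16 to 0.04). Of 11 tested zinc importers 1 was called higher and 1 lower, and 7 lay below 0, with a median of −0.31. SLC39A10, an importer at the cell surface, was at 32.0 CPM in the special medium and 11.96 CPM in KSFM, 2.68-fold higher (2.31 to 3.12). SLC39A4, which takes up dietary zinc in the intestine, was at 3.90 CPM in the special medium and 10.1 CPM in KSFM, 2.60-fold lower (1.97 to 3.48), a call that was lost after removal of the length trend.

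A list of 8 reported MTF1 target genes other than metallothioneins had 7 tested members, with a median log2 ratio of −0.43. Of these 1 was higher and 0 lower, against 9.86% and 6.77% over all tested genes, and 6 were neither. The higher one was again SLC39A10, which MTF1 is known to repress in mouse. SLC30A1, the exporter that MTF1 induces and which is named here after its values were seen, was at 23.4 CPM in the special medium and 33.9 CPM in KSFM, a log2 ratio of −0.54 (−0.72 to −0.36) that is short of 2-fold.

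Of 11 tested copper handling genes 2 were lower and 0 higher, against 6.77% and 9.86% over all tested genes. The median log2 ratio was −0.21. COX17, which carries copper to cytochrome oxidase, was 2.55-fold lower (2.26 to 2.89), and COMMD1, a copper homeostasis factor, was 2.30-fold lower (1.95 to 2.73). Both lie in the shortest 10% of tested genes, where 19.0% were called lower. After removal of the length trend 0 of the 11 were called. In the list of heavy metal and oxidative stress genes 4 of 10 were higher and 0 lower, against 9.86% and 6.77% over all tested genes. The median log2 ratio was 0.88. Of the 10, 8 lay above 0, while HMOX1, the heme oxygenase gene, was at −0.57 (−0.92 to −0.22) and FTL, the ferritin light chain gene, at −0.63 (−0.68 to −0.58). Both are named after their values were seen. The thioredoxin reductase gene TXNRD1 was at 1308 CPM in the special medium and 392 CPM in KSFM. The heat shock genes HSPA1B, HSPA1A and DNAJB1 had log2 ratios of 1.92, 1.46 and 1.18, and the split of reads between the near-identical HSPA1A and HSPA1B is uncertain. With length and GC content both removed, TXNRD1 and DNAJB1 were still called, and HSPA1A and HSPA1B had no GC value and were not tested.

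The glucocorticoid receptor and its target genes had 3 of 10 tested members lower and 0 higher, against 6.77% and 9.86% over all tested genes. The median log2 ratio was −0.35. FKBP5, an immunophilin induced by glucocorticoids, was at 58.5 CPM in the special medium and 168 CPM in KSFM, 2.87-fold lower (2.67 to 3.08). The clock gene PER1 was 2.26-fold lower (2.01 to 2.53) and the kinase gene SGK1 2.09-fold lower (1.83 to 2.40). The same count of 3 was lower after removal of the length trend, and on log2(TPM + 1) 1 was lower and 1 higher. The receptor gene NR3C1, named after its values were seen, had a log2 ratio of 0.88 (0.78 to 0.98) in the counts, short of 2-fold, and was 2.06-fold higher in TPM. The lists were described by these counts and medians, with no test.

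**Figure D4:**
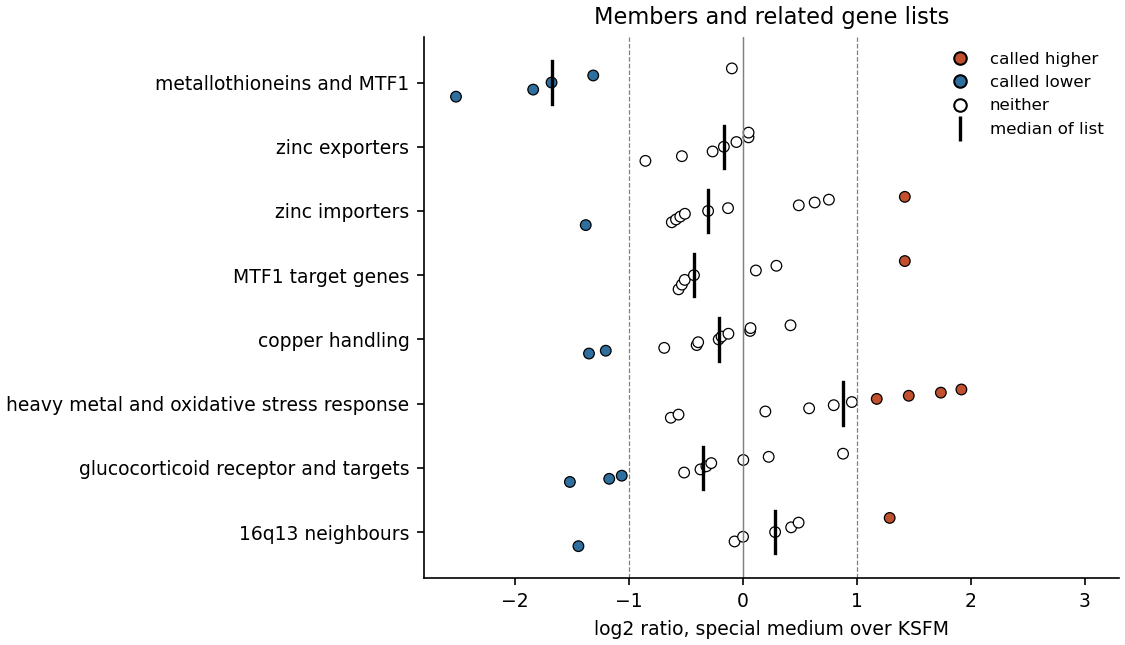
Log2 ratios of special medium over KSFM for the tested members and for each related gene list, 1 point per gene, with the list median as a bar and dashed lines at 2-fold. The 4 metallothioneins called lower lie between −2.52 and −1.31, and no zinc exporter passes 2-fold.

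Over 2 libraries the likeness of a gene to a member is the difference of their log2 ratios. Among 10411 genes that reached 10 CPM in the special medium or in KSFM, the nearest to MT2A were VIMP, SEC61G and SLC35B1, with log2 ratios of −1.84, −1.83 and −1.83. The nearest to MT1X were SEC11C, UNC13A and UPP1, at −2.53, −2.50 and −2.50.

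The libraries held 16900472 counts in the special medium and 21604652 in KSFM. Of 9 epithelial markers 5 were tested and 0 were called. KRT18 was at 1638 CPM in the special medium and 842 CPM in KSFM, a log2 ratio of 0.96, with EPCAM at 0.40, PAX6 at 0.43, CDH1 at −0.32 and KRT5 at −0.60. KRT14 had 10 counts in the special medium and 4 in KSFM, and TP63 had 13 in the special medium and 5 in KSFM. The corneal keratins KRT3 and KRT12, which define differentiated corneal epithelium, had 1 and 0 counts in the special medium and 0 and 0 in KSFM. Markers of fibroblasts had summed levels of 8.63 CPM in the special medium and 8.06 CPM in KSFM, with LUM and THY1 at 0 in both. Markers of melanocytes summed to 6.44 CPM in the special medium and 4.82 CPM in KSFM, most of it PMEL at 105 counts in the special medium and 90 in KSFM, with TYR at 0. MLANA had 3 counts in the special medium and 8 in KSFM, and DCT had 1 in the special medium and 6 in KSFM. Immune markers summed to 60.4 CPM in the special medium and 59.3 CPM in KSFM, nearly all of it CD68, with CD3E at 0 in both. LYZ, with 11 counts in the special medium and 48 in KSFM, was called lower, 3.42-fold (1.75 to 7.31). Endothelial markers summed to 15.5 CPM in the special medium and 0.97 CPM in KSFM. Of these CDH5 had 236 counts in the special medium and 3 in KSFM, and as the 1 tested it was called higher. PECAM1 had 15 counts in the special medium and 2 in KSFM, VWF 2 and 6, and KDR 10 and 10. TEK was at 0. The part of these markers in the metallothionein values was not tested.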

How the data were processed

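Poly(A) RNA was sequenced from 1 library per medium, each a pool of 3 cultures. Libraries came from a stranded kit, per the labels' protocols. The submitters' processing notes list RSEM, HISAT2 2.1.0, fastp 0.20.0, FastQC 0.11.9 and the build GRCh38. No source used here gives the RSEM version, the annotation or the strand setting. The authors deposited estimated counts per gene, fractional in 8.05% of genes in the special medium and 11.3% in KSFM, and TPM values, which are scaled by transcript length to 1 total in both libraries.

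Estimated counts were rounded and scaled by edgeR 4.0.16 TMM factors. Each log2 ratio, special medium over KSFM, carries a 95% interval by the exact Clopper-Pearson method, given the 2 counts' sum. A gene was tested at 1 CPM or more in either library. The call rule was checked on simulated Poisson counts. These held no spread between cultures and no length trend, so the check covers counting error only. Effective length is the count per TPM, averaged over the libraries and divided by the median gene, for genes at 0.1 TPM or more in both, 13533 of 13632 tested genes. GENCODE release 29 supplied coordinates and transcripts.

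The members and lists were chosen with earlier results of these data known. Of the list genes, SELENOW was found as SEPW1, and MT1CP and MT1P1 were not analysed here. Named are all members, and per list up to 4 called genes with the largest ratios or, with none called, the 2 most expressed. Alternatives were upper quartile, total count and DESeq2 1.42.0 scaling, the TPM scale with pseudocounts of 1 and 0.1 and centred, unrounded counts, other filters, stricter call rules, a length trend and, chosen after seeing the data, a length and GC trend. Scripts ran in Python 3.11.15 (scipy 1.17.1, numpy 2.4.6, matplotlib 3.10.9, pandas 2.3.3) and R 4.3.3.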

Additional observations from a re-analysis of the deposited data

How the results depend on the processing

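No paired analysis was possible because each medium has 1 library, so no replicate could be left out either. Counts limit the members: with 35 to 143 counts the interval of MT1E spans −2.26 to −1.14 on the log2 scale, while that of MT2A spans −1.92 to −1.77. Total count, DESeq2 and upper quartile scaling and unrounded counts kept all 5 log2 ratios within their intervals and 4 members lower.

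On log2(TPM + 1) the log2 ratio was −2.14 for MT1X, −1.502 for MT2A and −1.53 for the metallothionein sum. With a pseudocount of 0.1 these were −2.17, −1.503 and −1.53. The TPM scale moved the median of all tested genes by 0.15 and 0.16, and after centring MT2A was at −1.65 and the sum at −1.67. MT1F was at −0.95 on the first TPM scale, −0.99 on the second and −1.10 after centring. MTF1 was at 0.05 and 0.06 on TPM and −0.10 after centring.

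The length trend gave −0.93 for MT1E, −0.42 for MT1F, −1.53 for MT1X, −0.89 for MT2A and −0.91 for the sum. Length and GC together, over 11797 genes, gave −0.94, −0.40, −1.52, −0.89 and −0.91. The GC content used was that of the longest GENCODE transcript of each gene. It was 53.9% in MT2A and 53.7% in MT1X, against 63.0% and 50.9% in their coding transcripts of 3 exons. Members called lower were 1 after either trend, where 6.61% and 6.16% of all genes were lower. At 10 CPM or more, which MT1X reached in KSFM alone, 2 members were lower, as were 446 of 10411 genes. At 4-fold 1 member was lower, as were 1.19% of all genes. With the interval beyond 2-fold 3 members were lower, as were 395 of 13632 genes.

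Of all tested genes 349, 605 and 536 were lower on the 3 TPM scales, 446 at 10 CPM, 162 at 4-fold and 395 with the interval beyond 2-fold. Higher genes numbered 788, 408 and 837 in the last 3 cases. In the shortest 10% of genes 257 were lower in the counts, 139 and 158 on uncentred TPM, 118 and 83 after the length and the length and GC trends, 169 at 10 CPM, 41 at 4-fold and 137 with the interval beyond 2-fold.

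List medians moved on the 2 uncentred TPM scales to −0.14 and −0.14 for zinc importers, −0.15 and −0.16 for glucocorticoid genes and 0.45 and 0.45 for the neighbours of the cluster. The neighbours were at 0.16 and 0.14 after the 2 trends. MTF1 targets were at −0.25 after the length trend, and heavy metal genes at 1.03 with the pseudocount of 0.1 and 0.54 after length and GC, where HSPA1A and HSPA1B had no GC value. The share of MT1E in KSFM was 1.27% by TPM and 1.603% by counts. The cause of these shifts was not tested.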

Other observations

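Of 7 tested genes that flank the metallothionein cluster on chromosome 16, 1 was called higher, 1 lower and 5 neither, with a median log2 ratio of 0.28. Over all tested genes 9.86% were called higher and 6.77% lower, so these counts are near the background. HERPUD1, a membrane protein of endoplasmic reticulum-associated degradation, was at 81.2 CPM in the special medium and 221 CPM in KSFM, 2.72-fold lower (2.56 to 2.89). GNAO1, a G protein subunit gene, was at 28.2 CPM in the special medium and 11.5 CPM in KSFM, 2.44-fold higher (2.09 to 2.86). NUDT21, named after its values were seen, was at a log2 ratio of 0.00 (−0.05 to 0.05).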
